A study of Mus musculus with 6 samples.

Results

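The presynaptic vesicle and release genes are 36 genes of the machinery with which nerve endings store and release transmitter. They were chosen by gene symbol among the 55492 genes of the expression table, and all 36 were found. They comprise 4 SNARE proteins, 6 calcium sensors and complexins, 12 synaptic vesicle proteins, 7 active zone proteins, 2 vesicle recovery proteins and 5 genes for transmitter synthesis and loading. The RNA came from whole brains of mice at day 16 after birth (P16), 3 WT and 3 Npc1-/-, which carry the Npc1nih loss-of-function allele in every cell of the body. Both genotypes were hybrids of BALB/cJ and C57BL6/J from crosses of heterozygous parents, and none was treated. Cells with the O4 antigen, a surface lipid of late oligodendrocyte progenitors and oligodendrocytes, were purified on magnetic beads that carry an O4 antibody. Each library of poly(A) RNA is from 1 mouse. The beads enrich for such cells but do not remove every other cell or attached fragment.

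In a nerve ending, proton-driven transporters fill vesicles with glutamate or GABA. RIM and MUNC13 dock and prime the vesicles at the active zone, which also holds the scaffolds Bassoon and Piccolo. The SNARE proteins SNAP25, syntaxin and VAMP then fuse vesicle and plasma membrane when calcium binds a synaptotagmin, and dynamin with amphiphysin helps to recover the membrane. The machinery is best known from neurons, but oligodendrocyte lineage cells also contain several SNARE proteins and synaptotagmins, and oligodendrocyte progenitors receive synapses from axons. In RNA from a cell pool, a higher level can reflect more cells of a type or more RNA per cell, which cannot be told apart here.

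Npc1, the lysosomal cholesterol transporter gene that the Npc1nih allele disrupts, was measured first. Its levels in scaled TPM (TPM, a length-corrected abundance with the same total in each sample, divided by a size factor per sample) in the WT mice were 41.1, 45.5 and 43.9, and those of the Npc1-/- mice 3.72, 5.17 and 4.35, so every library matched its genotype label (log2 fold change -3.17, limma adjusted p = 0.000398). Myelin transcripts dominated all libraries: Mbp, the gene of myelin basic protein, took between 18.8% and 26.1% of the TPM in a sample. The depth read from the steps of low FPKM values was about 40750000 to 50250000 fragments per library. Of the 55492 genes, 15245 passed the filter of a mean TPM of at least 0.5, and the 36 presynaptic genes were all among them.

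All 36 genes were detected in every library, over a wide range of levels. The mean scaled TPM was at least 50 for 6 genes, from 10 to 50 for 11, from 1 to 10 for 14 and below 1 for 5. The median of their mean TPM was 9.03, against 7.80 over all genes tested, and 19 of the 36 lay above that median gene. TPM is per transcript length, so levels can be set side by side between genes. The highest was Syt11 (synaptotagmin 11), a member of the synaptotagmin family that does not bind calcium. It was followed by Vamp2, the main vesicle SNARE of neurons, by Rab3a, a small GTPase of vesicle membranes, and by Rims1 and Rims2, active zone scaffolds. The lowest were Sv2c, Gad2 and Slc32a1, with levels in single libraries between 0.351 and 1.24 scaled TPM. If all their fragments came from the longest annotated transcript, Slc32a1 rested on 42 to 82 fragments and Gad2 on 56 to 136 in a library, whereas Syt11 rested on 26284 to 35937. The plot of levels by mouse shows the range.

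**Figure D1:**
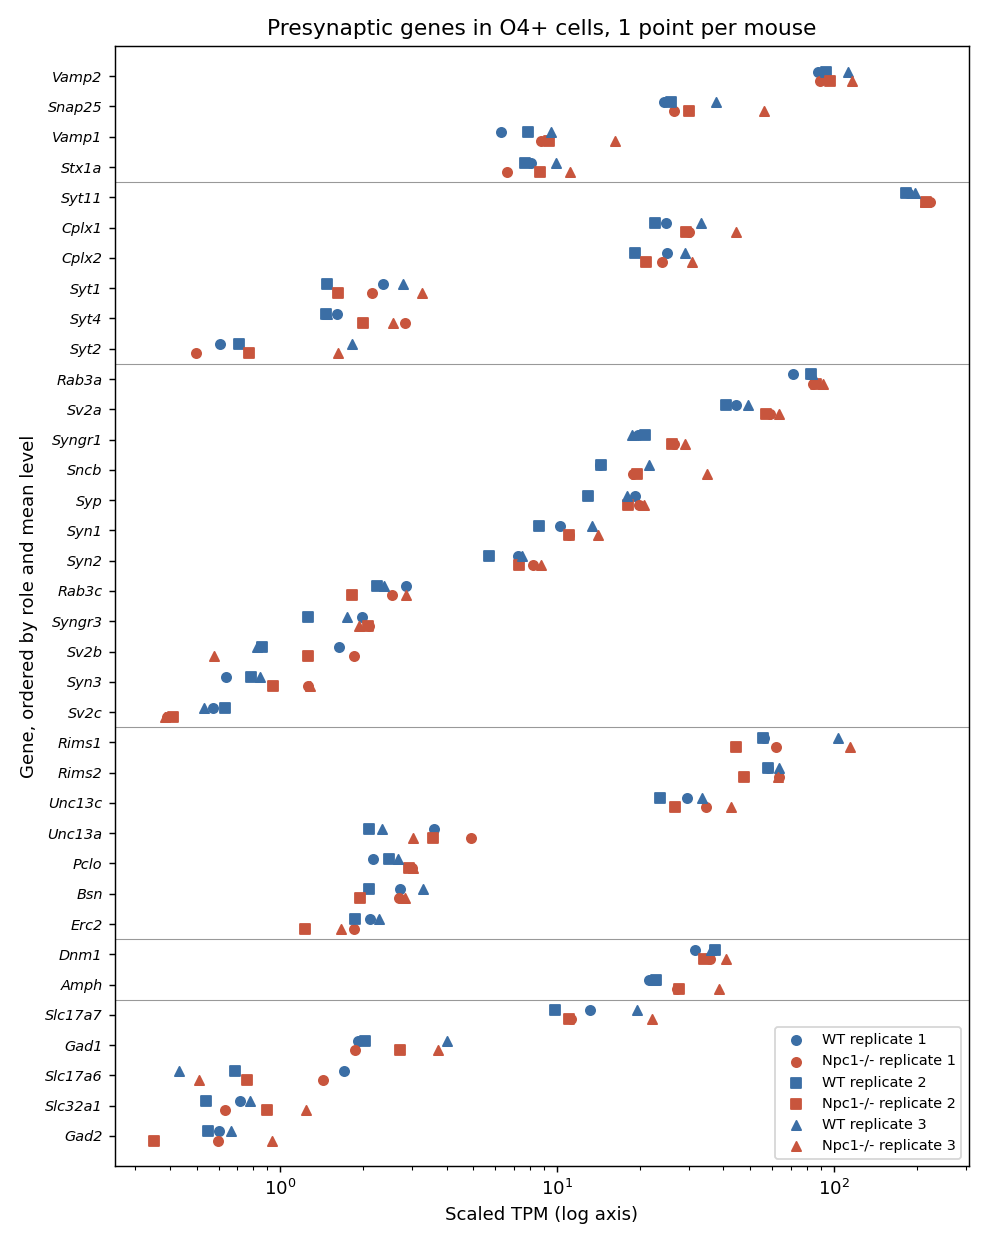
Scaled TPM (log axis) of the 36 presynaptic genes, grouped by role and ordered by mean level within a role. Blue points are WT mice, red points Npc1-/- mice, and the marker shape gives the replicate. Triangles (replicate 3) lie at the right of both genotypes for many genes, such as Rims1 and Snap25, while the colours separate for few.

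None of the 36 genes passed the test between genotypes (limma, adjusted p below 0.05 and absolute log2 fold change of at least 0.1), where 0.813% of all genes tested passed. Unadjusted p-values of limma below 0.05 were found for 5 genes that were higher in Npc1-/- mice (Syt4, Syt11, Sv2a, Syngr1 and Amph), or 13.9% of the list against 10.6% of all genes, and for 0 genes that were lower, against 11.6% of all genes. All 3 Npc1-/- levels exceeded all 3 WT levels in 8 genes (these 5 with Syn3, Rab3a and Pclo), or 22.2% of the list against 13.3% of all genes. The opposite order was found in 2 genes, Sv2c and Erc2, or 5.56% against 14.2% of all genes. A log2 fold change above 0 was found for 28 genes, or 77.8%, against 51.0% of all genes, and the median log2 fold change of the list was 0.16, against 0.01 over all genes tested. The median of the list in single mice, with each gene centred on its mean, had an SD of 0.16 between replicates of one genotype. That SD is the spread of single mice and not the error of a difference between means of 3 mice. Whether the list as a whole differed between genotypes was not tested.

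The direction depended on the scaling. With TPM as deposited, without size factors, the median log2 fold change of all genes was -0.33 and that of the presynaptic genes -0.17. Relative to all genes the list then stood at 0.15, as in the scaled values (0.15), but only 9 of its genes had a log2 fold change above 0. No gene then had all Npc1-/- samples above WT, and 4 had all below, so 11.1% were apart in either direction, against 28.2% of all genes. The higher and lower values in what follows are therefore relative to the bulk of genes in each library.

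**Figure D2:**
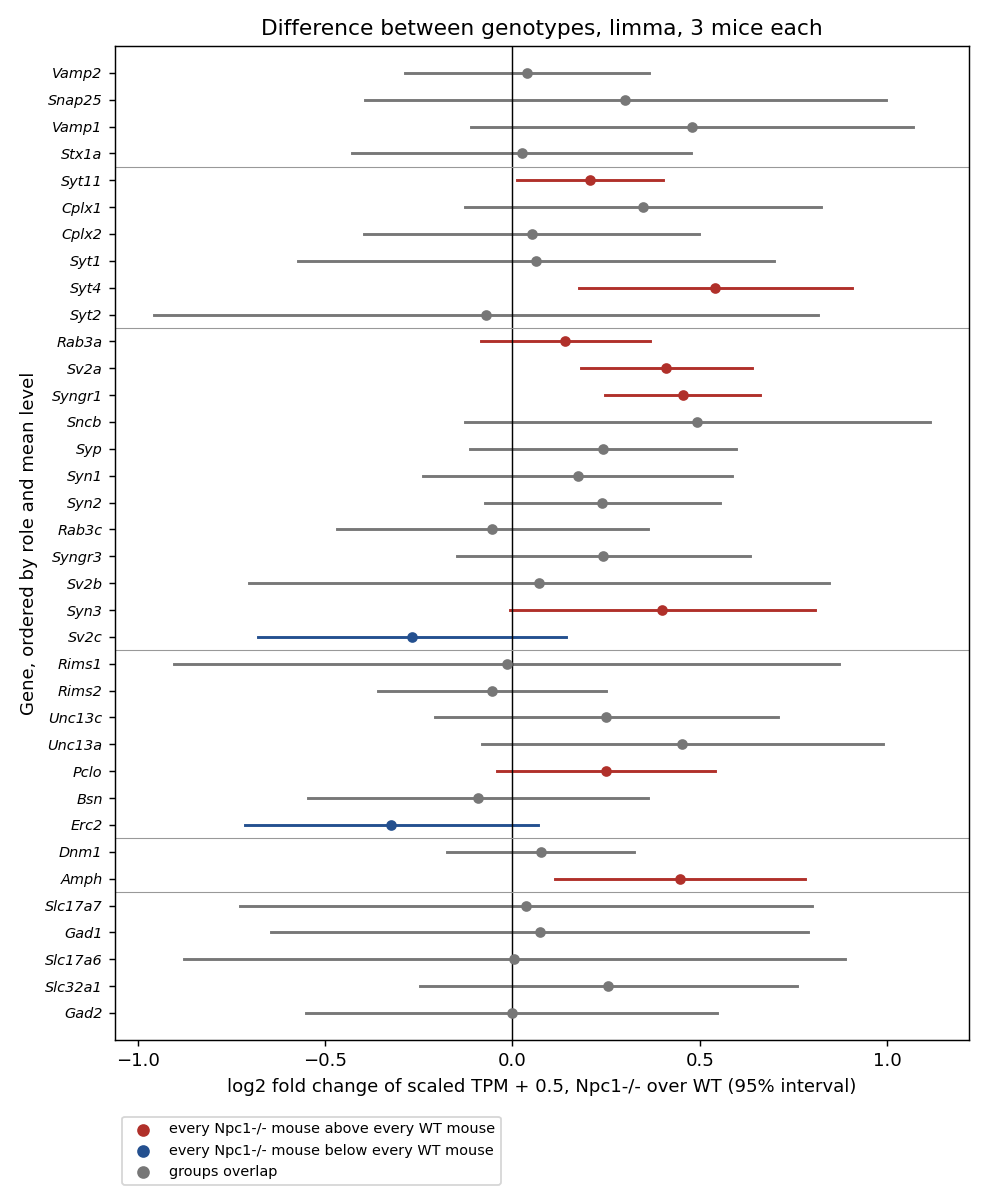
log2 fold change (Npc1-/- over WT) of scaled TPM + 0.5 for each presynaptic gene, with the 95% interval from limma, 3 mice per genotype. Red marks the 8 genes with every Npc1-/- mouse above every WT mouse, blue the 2 with the opposite order and grey the rest. The interval lies above 0 for 5 genes and below 0 for none.

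Among the synaptic vesicle proteins, Syngr1 had the smallest adjusted p of the 36 genes. Syngr1 encodes synaptogyrin 1, a vesicle membrane protein, at chr15:80091334-80119501 on the plus strand (GRCm38). It is described in full, as are Sv2a, Amph, Snap25 and some others, although these genes were picked after their values were seen. Its scaled TPM was 19.6, 20.9 and 18.6 in WT and 26.5, 26.1 and 28.9 in Npc1-/- mice. The groups did not overlap, and their difference exceeded the spread within either genotype (19.7 ± 1.12 against 27.2 ± 1.51, SD, n = 3 each), but the test across all genes was not passed (log2 fold change 0.45, SE 0.09, limma adjusted p = 0.0566). When the filter was raised to a mean TPM of 5, it passed (limma adjusted p = 0.0418), as did 4.89% of the genes then tested. The log2 fold change of Syngr1 was 0.09 with TPM as deposited.

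Sv2a encodes a transporter-like glycoprotein found on nearly all synaptic vesicles and lies at chr3:96181151-96195521 on the plus strand. Its scaled TPM was 44.6, 40.8 and 49.0 in WT and 58.9, 56.7 and 63.2 in Npc1-/- mice. The groups were again apart, with a log2 fold change of 0.41 (SE 0.10, limma adjusted p = 0.0733), or 0.04 with TPM as deposited. Its relatives were at lower levels and had other values. Sv2b ranged from 0.578 to 1.85 scaled TPM with overlapping groups (log2 fold change 0.07). Sv2c was at 0.571, 0.633 and 0.530 in WT and 0.390, 0.409 and 0.385 in Npc1-/- mice, with all Npc1-/- samples lower (log2 fold change -0.27, limma adjusted p = 0.427).

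For the genes with the smallest adjusted p on this list and for Amph, the DNA before the first annotated exon is given to show the kind of promoter these members have. The sequences are from RefSeq windows on GRCm38.p6, plus strand, trimmed where the first GENCODE exon starts, with CG dinucleotides in capitals. They are chr15:80091084-80091333 for Syngr1, chr3:96180977-96181150 for Sv2a and chr13:18948101-18948204 for Amph.
Syngr1: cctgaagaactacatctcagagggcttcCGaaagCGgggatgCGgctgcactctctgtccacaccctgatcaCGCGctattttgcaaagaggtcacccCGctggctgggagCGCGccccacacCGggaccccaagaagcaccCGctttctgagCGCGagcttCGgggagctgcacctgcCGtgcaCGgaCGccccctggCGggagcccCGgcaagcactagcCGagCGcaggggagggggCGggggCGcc
Sv2a: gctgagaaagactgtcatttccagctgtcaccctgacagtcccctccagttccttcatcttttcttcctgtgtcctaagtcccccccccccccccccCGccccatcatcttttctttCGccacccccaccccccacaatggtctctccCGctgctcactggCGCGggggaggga
Amph: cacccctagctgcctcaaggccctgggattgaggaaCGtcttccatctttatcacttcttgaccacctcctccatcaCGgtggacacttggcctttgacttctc
The Syngr1 stretch of 250 bases holds 22 CG dinucleotides, the Sv2a stretch of 174 bases holds 5 and the Amph stretch of 104 bases holds 2. The stretches were cut where the exon starts. The full windows of 300 bases hold 38 for Syngr1, 17 for Sv2a and 19 for Amph, and only these compare with the medians below. RefSeq windows of 300 bases around the start site were found for 30 of the 36 genes (38 windows), without Snap25, Rims2, Syt4, Syngr3, Vamp2 and Syn3. Their median number of CG dinucleotides was 17.5, against 7 over all 32851 windows, and their median GC content 61.2% against 52.7%. The 32851 windows include genes not expressed in these cells, whereas all 36 members passed the expression filter. The sets were not matched for expression, and some genes have several windows.

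The windows were also searched on both strands for the 2 arms of RE1, the element bound by REST, a repressor that keeps neuronal genes silent outside neurons. The left arm, searched as TTCAGCACC, was in 2 of the 38 windows (5.26%, against 0.371% of all windows). The right arm, searched as GGACAGC, was in 2 of 38 (5.26%, against 6.56%). The stretches with the left arm, the letters that these members share, are given from its first base, with the arms in capitals. That of Syn1 is on the minus strand at chrX:20921127-20921150, before the start site, and that of Unc13a is on the plus strand at chr8:71671727-71671750, just inside the transcribed part.
Syn1: TTCAGCACCgcggtcagagccttc
Unc13a: TTCAGCACCgggggcgcGGACAGC
In the Unc13a stretch both arms are present with 8 bases between them. The search took exact letters only and set no rule for the spacing of the arms. A right arm with other letters, in Syn1 or elsewhere, would be missed, and whether either stretch is a complete RE1 was not tested. A match is only a run of letters. Gad2 held the right arm alone. Syn1, the gene of the vesicle-tethering protein synapsin 1, had a log2 fold change of 0.17 (95% interval -0.24 to 0.59), and Unc13a, which encodes the priming factor MUNC13-1, one of 0.45 (-0.08 to 0.99). Both had overlapping groups.

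Of the other vesicle proteins, Rab3a was the most abundant. Its scaled TPM was 71.1, 83.2 and 83.3 in WT and 83.9, 86.1 and 91.7 in Npc1-/- mice. The highest WT and the lowest Npc1-/- level nearly met, the means were 79.2 ± 7.01 and 87.2 ± 4.002 (SD, n = 3 each), and the log2 fold change was 0.14 (SE 0.10, limma adjusted p = 0.445), or -0.23 with TPM as deposited. Rab3c, a close relative, was between 1.82 and 2.86 scaled TPM, with a log2 fold change of -0.05. Among the synapsins, which tether vesicles to actin, Syn3 was low but had all Npc1-/- samples above WT. Its scaled TPM was 0.641, 0.786 and 0.847 in WT and 1.26, 0.947 and 1.28 in Npc1-/- mice (log2 fold change 0.40, limma adjusted p = 0.231). Timp3, an abundant gene in many tissues, overlaps exons of Syn3 on the other strand, and whether the counting used strand is not given in the sources used here. Syn2 (log2 fold change 0.24) and Syp, the gene of synaptophysin (0.24), had overlapping groups, as did Syngr3 (0.24). Sncb, the gene of beta-synuclein, had one of the higher differences of the list at 0.49 (95% interval -0.13 to 1.11), with 14.3, 14.5 and 21.6 scaled TPM in WT and 18.9, 19.5 and 34.8 in Npc1-/- mice. In both genotypes replicate 3 was far above the other mice, and the WT replicate 3 exceeded 2 of the 3 Npc1-/- mice.

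Among the synaptotagmins and complexins, Syt11 was by far the most abundant. Its scaled TPM was 186, 183 and 196 in WT and 222, 215 and 215 in Npc1-/- mice. Its groups were apart with a small spread (188 ± 7.09 against 217 ± 4.30), and its log2 fold change was 0.21 (95% interval 0.01 to 0.40, limma adjusted p = 0.203). With TPM as deposited the value was -0.17. Syt4, a synaptotagmin of dense-core and other secretory vesicles at chr18:31437808-31447406 on the minus strand, had the highest log2 fold change of the list. Its scaled TPM was 1.61, 1.46 and 1.48 in WT and 2.82, 1.99 and 2.56 in Npc1-/- mice, with no overlap (log2 fold change 0.54, SE 0.15, limma adjusted p = 0.102). Gm26658 overlaps its exons on the other strand. The fast calcium sensors of neuronal release were low. Syt1 was at 2.36, 1.47 and 2.77 scaled TPM in WT and 2.14, 1.61 and 3.26 in Npc1-/- mice, with overlapping groups (log2 fold change 0.06). Syt2, the fast sensor of many hindbrain synapses, was between 0.499 and 1.82, and in each genotype replicate 3 was over the other mice (1.82 in WT and 1.62 in Npc1-/-). The complexins Cplx1 and Cplx2, which clamp and promote SNARE assembly, were at 19.1 to 44.4 scaled TPM, with log2 fold changes of 0.35 and 0.05 and overlapping groups.

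The 4 SNARE genes had overlapping groups. Vamp2 was at 87.6, 94.1 and 112.8 scaled TPM in WT and 89.2, 96.7 and 116.9 in Npc1-/- mice. Within each genotype the order of the replicates was the same, and the genotypes differed by a log2 fold change of 0.04 (95% interval -0.29 to 0.37). Snap25, the plasma membrane SNARE, was at 24.3, 25.8 and 37.6 in WT and 26.5, 30.03 and 56.1 in Npc1-/- mice. Here too replicate 3 stood above the other mice of both genotypes, and the interval of the log2 fold change of 0.30 was wide (-0.39 to 0.997). Vamp1, a vesicle SNARE of hindbrain and spinal neurons, had a log2 fold change of 0.48 (-0.11 to 1.07). Stx1a, a plasma membrane syntaxin, had one of 0.02 (-0.43 to 0.48).

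The active zone genes were split. Of the 7 genes, 3 had a log2 fold change above 0 and the median was -0.02. Rims1 was at 56.2, 55.7 and 103.6 scaled TPM in WT and 61.9, 44.2 and 114.6 in Npc1-/- mice. Replicate 3 was highest in both genotypes by a wide margin, whereas the genotype means were close (71.8 ± 27.5 against 73.6 ± 36.6), and the interval of the log2 fold change of -0.02 ran from -0.90 to 0.87. Rims2 was at 58.1, 57.8 and 63.3 in WT and 63.6, 47.3 and 62.9 in Npc1-/- mice, which overlapped (log2 fold change -0.06, 95% interval -0.36 to 0.25). Pclo, the gene of the giant scaffold Piccolo, was at 2.16, 2.49 and 2.67 in WT and 3.005, 2.94 and 3.01 in Npc1-/- mice. Its groups were apart (log2 fold change 0.25, limma adjusted p = 0.293), though the value with TPM as deposited was -0.06. Erc2, a scaffold of the CAST family, was at 2.12, 1.87 and 2.27 in WT and 1.85, 1.23 and 1.67 in Npc1-/- mice. All Npc1-/- samples were lower, by a narrow gap (log2 fold change -0.32, limma adjusted p = 0.308). Bsn, which encodes Bassoon, had a log2 fold change of -0.09 and Unc13c, a MUNC13 gene of cerebellar granule cells, one of 0.25.

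Of the vesicle recovery genes, Amph was at 21.6, 22.9 and 22.7 scaled TPM in WT and 27.1, 27.7 and 38.5 in Npc1-/- mice. It encodes amphiphysin, which binds dynamin at the necks of budding vesicles, and lies at chr13:18948205-19150921. The groups were apart, with replicate 3 well above the other Npc1-/- mice (log2 fold change 0.45, SE 0.14, limma adjusted p = 0.126). The value with TPM as deposited was 0.08. Dnm1, the neuronal dynamin, was between 31.7 and 40.8 scaled TPM with overlapping groups (log2 fold change 0.08, 95% interval -0.17 to 0.32).

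The transmitter genes had overlapping groups throughout, with log2 fold changes from near 0 (Gad2 and Slc17a6) to 0.26 (Slc32a1). Slc17a7, the vesicular glutamate transporter VGLUT1 of cortical and cerebellar granule neurons, was the most abundant, at 13.1, 9.83 and 19.5 scaled TPM in WT and 11.2, 11.0 and 22.05 in Npc1-/- mice. Slc17a6, VGLUT2 of brainstem and thalamic neurons, was highest in replicate 1 of both genotypes, at 1.70, 0.687 and 0.433 in WT and 1.43, 0.760 and 0.509 in Npc1-/- mice. The 2 transporters were thus highest in different mice. The GABA genes were low. Gad1, a GABA-synthesising enzyme, was between 1.86 and 4.02 scaled TPM, its partner Gad2 between 0.351 and 0.936, and Slc32a1, the vesicular GABA transporter, between 0.542 and 1.24.

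Many members differed between mice of one genotype, and the pattern was shared by both genotypes. Replicate 3 was the highest of its genotype in both WT and Npc1-/- mice for 22 of the 36 genes, or 61.1%, against 21.0% of all genes tested. These included the 4 SNARE genes, 4 of the 6 calcium sensors and complexins, 6 of the 12 vesicle proteins, 4 of the 7 active zone genes and 4 of the 5 transmitter genes. Replicate 1 was the highest in both genotypes for 5 genes (Syt4, Sv2b, Syngr3, Unc13a and Slc17a6), or 13.9% against 19.4% of all genes. The log2 excess of replicate 3 over the mean of the other mice had a median of 0.18 in WT and 0.29 in Npc1-/- mice over the 36 genes. Over all genes tested those medians were -0.004 and 0.02. The excess was above 0 in both genotypes for 27 of the 36 genes (75.0%, against 33.6% of all genes). Across the 36 genes the excess in WT and that in Npc1-/- mice had a Pearson r of 0.86 (0.33 across all genes), as a description across genes that come from the same 6 libraries and are not independent.

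**Figure D3:**
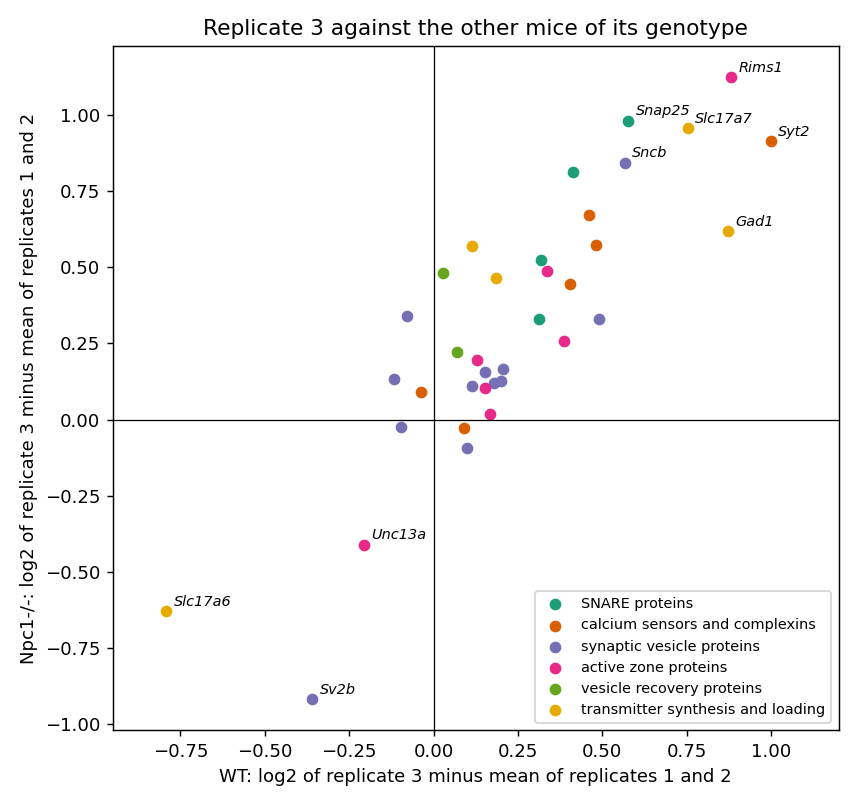
Excess of replicate 3 over the mean of replicates 1 and 2 of its genotype, on the log2 scale of scaled TPM + 0.5, in WT (x axis) and Npc1-/- mice (y axis), 1 point per presynaptic gene, coloured by role. Of the 36 genes, 27 lie in the upper right part, above 0 on both axes, and Slc17a6, Sv2b and Unc13a lie at the lower left.

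Markers of neurons were divided between the replicates. Of the 7 forebrain projection neuron markers tested, 3 were highest in replicate 3 of both genotypes, among them the abundant Camk2a and Nrgn, and 2 in replicate 1 (Neurod2 and Neurod6). Camk2a was at 49.4, 41.3 and 79.0 scaled TPM in WT and 33.5, 34.8 and 76.0 in Npc1-/- mice. The summed level of the 8 forebrain projection neuron markers, most of it from Camk2a and Nrgn, was 120, 106 and 177 in WT and 103, 106 and 192 in Npc1-/- mice. The summed level of the 8 cerebellar granule cell markers, most of it from Zic1, Neurod1 and Pax6, was instead highest in replicate 1. It was 105, 43.3 and 41.8 in WT and 120, 66.8 and 38.4 in Npc1-/- mice. Of the 7 tested, 5 were highest in replicate 1 of both genotypes and 2, Cbln3 and Gabra6, in replicate 3. Neurod1 was at 25.4, 7.92 and 3.31 in WT and 34.9, 17.3 and 4.28 in Npc1-/- mice. Of the 16 pan-neuronal markers, 8 were highest in replicate 1 of both genotypes and 3 in replicate 3. Of the markers of mature oligodendrocytes, 5 of 8 were also highest in replicate 3 of both genotypes, as were 9 of the 21 general membrane fusion genes tested. Among 36 other neuronal release genes tested, described below, 15 were highest in replicate 3 of both genotypes and 6 in replicate 1. The part of each cell type in the presynaptic levels was not tested. Xist, a transcript of female cells, was at 21.4 scaled TPM in Npc1-/- replicate 3 and at most 0.0096 in the other 5 libraries, WT replicate 3 included, and the part of sex was not tested.

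Some markers of neurons passed the test between genotypes. Of the 7 Purkinje cell markers, 4 rose in Npc1-/- mice: Pcp2 (log2 fold change 1.602, limma adjusted p = 0.00674), Pcp4 (1.62, 0.00255), Pvalb (1.62, 0.00255) and Car8 (1.24, 0.0133). Itpr1, also on this list, did not pass and had every Npc1-/- sample below WT (log2 fold change -0.72, limma adjusted p = 0.105). Their list summed to between 324 and 366 scaled TPM in WT and between 931 and 1104 in Npc1-/- mice. Of the 16 pan-neuronal markers, the neurofilament genes Nefl (1.22, 0.0185) and Nefm (1.11, 0.0134) rose. In 6 of the 16 every Npc1-/- sample was above WT. Map2 alone had the opposite order and did not pass (log2 fold change -0.31, limma adjusted p = 0.147). The list had a median log2 fold change of 0.44 and sums of 464 to 497 in WT and 587 to 646 in Npc1-/- mice. Across the 36 presynaptic genes the sum was 775 to 947 in WT and 852 to 1105 in Npc1-/- mice, which overlapped.

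**Figure D4:**
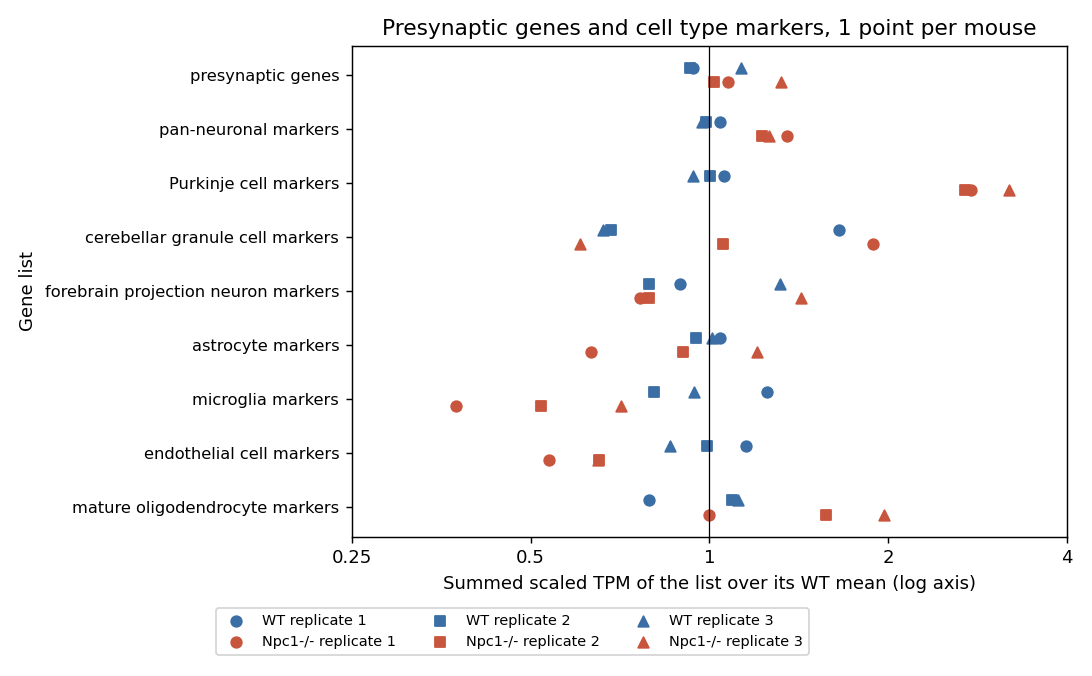
Summed scaled TPM of each gene list in each mouse, over the mean of the 3 WT mice (log axis), for the presynaptic genes and 8 lists of cell type markers. Blue points are WT and red points Npc1-/- mice, with the marker shape giving the replicate. The Purkinje sums are clearly apart, the presynaptic sums overlap, and the forebrain and granule sums follow the replicate.

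The microglia, endothelial and astrocyte lists had median log2 fold changes of -1.003, -0.80 and -0.58. Of the 8 microglia markers 1 fell, Tmem119 (log2 fold change -1.44, limma adjusted p = 0.0442), and 7 were lower in all Npc1-/- mice, with no overlap. Their sums were 216 to 334 in WT and 100 to 189 in Npc1-/- mice. The 8 endothelial markers all had that order, although none passed the test (Cldn5 -0.54, Slco1a4 -1.10, Flt1 -0.997), with sums of 618 to 828 against 386 to 470. Of the 8 astrocyte markers, 6 were lower in every Npc1-/- sample and none passed (Aldoc -0.21, Gfap 1.01, Slc1a2 -0.79), with sums of 703 to 770 against 467 to 891. The oligodendrocyte lists had no gene past the test, with medians of 0.06 for progenitors, -0.12 for immature cells and 0.39 for mature cells. Of the 8 mature markers, 7 were above 0, and 2 (Aspa and Mag) had every Npc1-/- sample above WT. The most abundant genes of these lists were Sox10 (0.02), Olig2 (0.06) and Ptprz1 (-0.35) for progenitors, Bcas1 (0.74), Gpr17 (-0.22) and Bmp4 (-0.11) for immature cells and Mbp (0.57) and Mobp (0.63) for mature cells. The granule cell (Zic1 0.03, Neurod1 0.62, Pax6 0.24), forebrain projection (Nrgn 0.11, Camk2a -0.28, Cux2 0.02) and interneuron lists (Sst 0.46, Npy 0.44, Dlx1 -0.43) had none either. The part of these lists in the presynaptic values was not tested.

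The rest of the release pathway was read from 2 further lists. Of 42 other neuronal release genes, 36 passed the filter and none passed the test. Of these, 4 had every Npc1-/- sample above WT and 5 below, 19 were above 0, and the median log2 fold change was 0.03. The most abundant were Rph3a, a RAB3 effector (0.48), Ppfia3, a liprin scaffold (0.25), and Napa, the alpha-SNAP gene (0.37). Of 22 general membrane fusion genes, which act in cells of all kinds, 21 were tested and none passed, with a median of 0.03. Bin1, the broadly expressed relative of Amph, was at -0.06, Vamp3 at 0.18 and Dnm2 at -0.11. Among the 15245 genes tested, 61 rose and 63 fell.

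Transcript length moved with the log2 fold change. Across genes with an annotated length, Spearman's rho was -0.26, as a description across genes that share libraries. The 19 presynaptic genes whose longest transcript has at least 4500 bases had a median of 0.06 and the 17 shorter ones 0.24, against -0.08 and 0.04 over all genes. After a curve on transcript length was removed (chosen after seeing the data), the median over the list was 0.17, no gene was called, and 33 genes were above 0. Every Npc1-/- sample was then above WT in 7 genes and below WT in 0, as the groups of Sv2c and Erc2 overlapped. Groups were thus apart for 19.4% of the list, against 26.1% of all genes.

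The 95% interval of the log2 fold change lay within 1 unit of 0 for 34 of the 36 genes and within 0.5 for 8. To pass the test at its own standard error, a gene would have needed a log2 fold change of between 0.52 (Syt11) and 2.34 (Syt2 and Rims1). Exons of 12 of the 36 genes overlap another gene, and the values of these could hold its reads. They include Syt4, Syn3, Rab3a, Pclo and Erc2, whose groups were apart. The others are Syn1, Syn2, Syp, Sv2b, Unc13a, Bsn and Slc32a1.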

How the data were processed

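Per the sample labels, the authors' processing notes list cutadapt 2.3, FastQC 0.11.8, STAR 2.7.8a, RSEM 1.3.3 and MultiQC 1.7 with the build GRCm38/mm10, while the methods of the study name bbduk, STAR, featureCounts and DESeq2 for its own counts. The authors deposited TPM, a transcript abundance per length with an equal sum in each library. They also deposited FPKM, fragments per kilobase and library size, which here served to estimate depth and as an alternative. Annotation release and use of strand are not given in the sources used here.

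TPM was divided by median-of-ratios size factors (genes above 0 in every sample), and the log2 of the result plus 0.5 was used. The fit on genotype, by lmFit and eBayes (with trend) of limma 3.58.1 under R 4.3.3, took genes whose TPM averaged at least 0.5, with Benjamini-Hochberg adjustment over 15245 genes. A call needed an adjusted p below 0.05 and a log2 fold change of 0.1 or more in size. Fold changes are on the log2(value + 0.5) scale and understate those of low genes. Positions are from GENCODE M21 (GRCm38). Summaries and plots were made in Python 3.11.15 (matplotlib 3.10.9, scipy 1.17.1, pandas 2.3.3, numpy 2.4.6).

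All 36 genes are named. Values per mouse were planned for genes that passed the test, for genes with groups apart and a log2 fold change of 0.5 or more in size, and for the 5 most abundant genes. From each other list the genes that passed, or otherwise the 3 most abundant, are named, except 1 that is not reported here. Other values per mouse were chosen after the values were seen. The members, gene lists and marker lists were chosen with earlier results of these data known. Of the markers, 1 immature oligodendrocyte gene of 7 was not matched. The alternatives are given in the closing section.

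Depth was estimated from whole multiples of the worth of 1 fragment in FPKM of genes with a single transcript, where 81.5% to 85.3% of values lay within 0.15 of a whole number. No count test was run, because the deposited TPM and FPKM values hold no counts. Each library is from 1 mouse, and errors are the spread between mice.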

Additional observations from a re-analysis of the deposited data

How the results depend on the processing

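Calls depended on few settings. No presynaptic gene was called with quantile normalization, no filter, FPKM, a pseudocount of 0.1 or 1, TPM as deposited, limma without trend or with robust estimation, the X, Y and mitochondrial genes left out, the transcript length curve removed or any sample left out. With a mean TPM of at least 5, where 20 of the genes were tested, 1 was called (Syngr1, limma adjusted p = 0.0418) and 5 had groups apart. Of the 9150 genes tested in all, 4.89% were called and 30.3% had groups apart. With the replicate number as a block (replicate block) 4 were called by limma: Sv2a (adjusted p = 0.0237), Sncb (0.0297), Syngr1 (0.0321) and Cplx1 (0.0365). These are 11.1% of the list, against 13.2% of all genes (1143 higher and 868 lower). The labels repeat the numbers 1 to 3 in both genotypes but do not say that they pair mice. Deviations of same-numbered samples correlated at 0.41, 0.06 and 0.33, and every sample correlated best with its own number. For replicate 2 this was nearly a tie, as WT replicate 3 with Npc1-/- replicate 2 reached 0.05. The deviations sum to 0 within a genotype, so these correlations are not independent. They are a hint from the data and not from the design.

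With TPM as deposited the median log2 fold change was -0.17 (-0.33 over all genes) and 4 genes had groups apart, against 10. The log2 fold change was then -0.0666 for Snap25, -0.33 for Vamp2, -0.33 for Stx1a, -0.24 for Syt1, -0.17 for Syt11, -0.0189 for Cplx1, -0.32 for Cplx2, -0.12 for Syp, -0.18 for Syn1, -0.11 for Syn2, -0.16 for Sv2b, -0.0488 for Syngr3, -0.23 for Rab3a, -0.12 for Unc13c, -0.0617 for Pclo, -0.29 for Dnm1, -0.21 for Slc17a6, -0.32 for Slc17a7 and -0.24 for Gad1. The sign also turned for Slc17a6 (-0.0068) and Gad2 (0.0085) with FPKM, for Vamp2 (-0.0891), Rab3c (0.0021) and Gad2 (0.0165) with quantile normalization, and for Slc17a6 (-0.0043) and Gad2 (0.0052) with a pseudocount of 1. With the length curve removed it turned for Stx1a (-0.0135), Syt2 (0.0393), Rab3c (0.0756), Rims1 (0.0859), Rims2 (0.00078), Bsn (0.0733) and Gad2 (0.0844). The cause was not tested, other than by the construction of each setting.

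When samples were left out singly, the median log2 fold change lay between 0.09 (without Npc1-/- replicate 3) and 0.28 (without WT replicate 3), and 9 to 16 genes had groups apart, with 16 without WT replicate 3. Between 25.7% and 44.4% of the list was then apart, the latter without WT replicate 3, against 32.6% to 43.0% of all genes (39.0% without WT replicate 3). The sign of 16 genes turned without at least 1 sample. Their log2 fold changes ranged from -0.0292 to 0.51 for Snap25, from -0.0750 to 0.14 for Vamp2, from -0.15 to 0.21 for Stx1a, from -0.17 to 0.26 for Syt1, from -0.38 to 0.26 for Syt2, from -0.11 to 0.18 for Cplx2, from -0.18 to 0.38 for Sv2b, from -0.17 to 0.10 for Rab3c, from -0.39 to 0.29 for Rims1, from -0.13 to 0.0837 for Rims2, from -0.23 to 0.0473 for Bsn, from -0.0019 to 0.13 for Dnm1, from -0.26 to 0.35 for Slc17a6, from -0.29 to 0.29 for Slc17a7, from -0.14 to 0.36 for Gad1 and from -0.20 to 0.19 for Gad2. The sign of the other 20 genes held in every such fit that tested them. Sv2c, one of these, fell below the filter without WT replicate 1 and without WT replicate 2, where 35 genes were tested. Of the 20 genes, 13 moved by over 1.5 times, to values nearest 0 of 0.28 for Amph, 0.15 for Cplx1, -0.20 for Erc2, 0.0657 for Rab3a, 0.10 for Slc32a1, 0.21 for Sncb, 0.0311 for Syn1, 0.12 for Syn2, 0.10 for Syngr3, 0.0758 for Syp, 0.29 for Unc13a, 0.0852 for Unc13c and 0.20 for Vamp1. Genes at low levels rest on few fragments, and 3 mice per genotype limit the precision of all values.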
